A study of Mus musculus with 12 samples.

Results

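The transforming growth factor β (TGFβ) pathway was followed through mouse thymocyte development in 10 of its genes, with the inhibitor gene Smad7 foremost among them. The others are the ligand gene Tgfb1, the receptor genes Tgfbr1 and Tgfbr2, the signal transducers Smad2, Smad3 and Smad4, and the corepressor genes Ski, Skil and Tgif1. They were read through the probe sets whose only symbol in the platform annotation was one of these, 23 of 45037 probe sets tested, with 1 to 3 for each gene, so that 10 of 18193 genes with such a probe set are described. Total RNA came from thymocytes of C57BL/6 mice, extracted straight after isolation with neither culture nor treatment, and each of 4 sorted subsets was read on 3 Affymetrix arrays. The DN subset was sorted as negative for CD4, CD8 and TCRβ, and the DP subset as positive for CD4 and CD8. The single-positive subsets had high TCRβ, with CD4 and no CD8 in CD4SP and with CD8 and no CD4 in CD8SP. The labels do not say whether the arrays of a subset came from separate mice or pools, and the p-values below therefore reflect array-to-array spread alone, which may be technical, with a precision limited by the number of arrays.

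TGFβ binds a type II receptor, encoded by Tgfbr2, which recruits and activates the type I receptor encoded by Tgfbr1. The type I receptor phosphorylates SMAD2 and SMAD3, which join SMAD4 and regulate genes in the nucleus. SMAD7 occupies the type I receptor and brings ubiquitin ligases to it, and its own gene is a target of the pathway, which makes it a negative feedback. SKI, SnoN (the product of Skil) and TGIF1 restrain transcription driven by SMAD proteins. In T cells the pathway is known for limiting activation and for supporting regulatory T cells.

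Each deposited value is a log value from which the mean of the DP arrays had been subtracted, read here as log2. DP therefore lies at 0 for each probe set, a value of 0 means equal to DP and not absent, and levels cannot be compared between probe sets. A change was called at an adjusted p under 0.05 in 1 limma fit of all 12 arrays, with Benjamini-Hochberg adjustment over all probe sets tested, and every adjusted p below comes from that fit or a stated variant of it. Differences are log2 differences ± the standard error of the fit (3 arrays per group), and folds assume base 2. In bulk RNA, fewer cells of a type and less RNA per cell cannot be told apart.

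The sorting markers followed the gates. Cd4 lay at -9.20 to -8.39 in CD8SP, Cd8a at -6.84 to -6.35 in CD4SP, and Rag1, a recombinase gene of immature stages, at -9.44 to -9.01 in the single-positive subsets. Cd4 and Cd8a lay less far below DP on the DN arrays, at -6.49 to -3.88 and -4.59 to -2.63. Some markers of other cells were higher on the DN arrays than in DP. The list mean of 8 myeloid and dendritic cell markers was 2.15 to 3.64 in DN against -0.24 to 0.20 in DP, with 4 of 8 above all DP arrays on all DN arrays, while the macrophage receptor gene Csf1r lay at -0.11 to 0.41. For B cells 3 of 4 markers were above all DP arrays (list mean 1.11 to 2.91), for NK and innate lymphoid cells 4 of 4 (1.44 to 2.75) and for γδ T cells 2 of 2 (1.48 to 2.15). DN replicate 1 stood apart from the other DN arrays, with Cd4 at -3.88 against -6.49 and -5.29 and the lowest DN value of each myeloid marker. Its values were deposited with at most 3 decimals and those of each other array with up to 9, and the labels give no reason. In the single-positive subsets the myeloid list mean was -0.28 to -0.08 (CD4SP) and -0.41 to -0.03 (CD8SP), and that of 3 regulatory T cell markers was 2.21 to 2.44 and 1.46 to 1.63, while Foxp3 itself lay at 0.39 to 0.68 and 0.00 to 0.28. The part of these cells in the differences below was not tested.

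Smad7 was lowest in DP, intermediate in DN and highest in the single-positive subsets. Probe set 1423389_at read 3.89, 4.81 and 4.93 in DN, -0.39, -0.12 and 0.51 in DP, 7.09, 6.95 and 6.90 in CD4SP and 7.17, 7.27 and 7.40 in CD8SP. The DN arrays lay wholly above the DP arrays and wholly below the single-positive arrays. From DN to DP it fell by 4.54 ± 0.27, a 23.3-fold difference (adjusted p = 9.18e-07). From DP it rose by 6.98 ± 0.27 in CD4SP (126-fold, adjusted p = 4.07e-08) and by 7.28 ± 0.27 in CD8SP (155-fold, adjusted p = 2.50e-08). Signal over background in DP is unknown, so the folds against DP describe the deposited values only. The single-positive subsets also exceeded DN, CD4SP by 2.44 ± 0.27 (adjusted p = 4.04e-05) and CD8SP by 2.74 ± 0.27 (adjusted p = 2.46e-05). CD4SP and CD8SP, neighbours in that order, were not called different. CD4SP minus CD8SP was -0.30, with a 95% interval of -0.90 to 0.31 (adjusted p = 0.557), although the CD4SP arrays all lay below the CD8SP arrays.

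The other Smad7 probe set, 1443771_x_at, whose suffix marks probes that may also match other transcripts, gave the same order of subsets. It read 3.65, 4.84 and 4.99 in DN, -1.01, 0.03 and 0.97 in DP, 6.93, 7.11 and 7.05 in CD4SP and 6.77, 7.18 and 7.25 in CD8SP. The DP arrays were the most scattered, with an SD of 0.99 (n = 3) against 0.09 in CD4SP. It fell from DN to DP by 4.49 ± 0.45 (adjusted p = 2.60e-05) and rose from DP by 7.03 ± 0.45 in CD4SP (adjusted p = 9.69e-07) and by 7.07 ± 0.45 in CD8SP (adjusted p = 8.38e-07). The single-positive subsets differed by -0.04, with a 95% interval of -1.04 to 0.96. DN replicate 1 was the lowest DN array for each Smad7 probe set, and without it DP minus DN was -4.87 and -4.91. By the span of the group means the Smad7 probe sets ranked 41 and 56 among 34945 probe sets with 1 gene symbol. That span starts from DP, where signal over background is unknown.

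**Figure D1:**
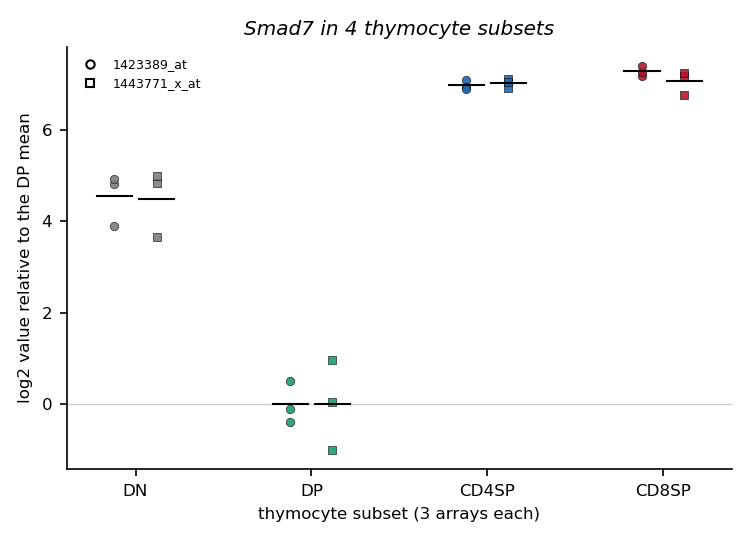
Log2 values of the 2 Smad7 probe sets relative to the DP mean (vertical axis) on each of 12 arrays, by thymocyte subset (horizontal axis). Markers are single arrays, their shapes the probe sets in the key, and bars are means of 3 arrays; DP lies at 0 by construction, DN at 4.54 and 4.49, and the single-positive subsets between 6.98 and 7.28.

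Other genes had nearly the same profile as Smad7. Among 1489 genes with a probe set whose group means span at least 2 log2 units, members aside, the 6 with the highest Pearson correlation to 1423389_at over the 12 arrays were Sting1, Bcl2, Lcp1, H2-K1, Ctss and Ccnd2. Their r ran from 0.994 to 0.998, which mostly describes 4 group means and carries no p. Sting1, the gene of an adaptor in cytosolic DNA sensing, had means of 2.58 in DN, 4.06 in CD4SP and 4.08 in CD8SP. The survival gene Bcl2 had means of 2.41, 3.94 and 4.05 in the same order. The cysteine protease gene Ctss (4.43, 7.13 and 7.08) and the cyclin gene Ccnd2 (4.28, 6.51 and 6.53) had differences of a size near that of Smad7. The MHC class I gene H2-K1 and the actin-bundling gene Lcp1 had smaller ones, with CD8SP means of 5.13 and 2.33.

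Tgfb1, the ligand gene, was highest in CD4SP by each of its probe sets. Probe set 1420653_at read 0.06, 0.32 and 0.22 in DN, 0.06, -0.10 and 0.04 in DP, 1.50, 1.09 and 1.26 in CD4SP and 0.57, 0.82 and 0.74 in CD8SP. The CD4SP arrays lay above those of every other subset, and the CD8SP arrays came next. It rose over DP by 1.28 ± 0.12 in CD4SP (2.43-fold, adjusted p = 1.98e-05) and by 0.71 ± 0.12 in CD8SP (adjusted p = 0.00102). Probe set 1445360_at read -0.48, -0.46 and -0.59 in DN, 0.04, 0.04 and -0.08 in DP, 0.60, 0.42 and 0.51 in CD4SP and 0.40, 0.05 and -0.04 in CD8SP. By this probe set DN was the lowest group, and CD8SP overlapped DP. It rose from DN to DP by 0.51 ± 0.12 (adjusted p = 0.00624), where 1420653_at gave -0.20 ± 0.12 and no call, so the probe sets disagree on that step. It rose in CD4SP over DP by 0.51 ± 0.12 (adjusted p = 0.00745), and its difference of CD8SP from DP was 0.14, with a 95% interval of -0.12 to 0.40.

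The receptor genes moved in opposite directions after the DP stage. Tgfbr2, the gene of the ligand-binding type II receptor, rose by 2 of its 3 probe sets. Probe set 1426397_at read -0.38, 0.44 and 0.41 in DN, -0.18, 0.07 and 0.11 in DP, 2.83, 2.87 and 3.04 in CD4SP and 2.34, 2.50 and 2.54 in CD8SP. DN and DP overlapped, and each single-positive array lay above all of them. The rise over DP was 2.91 ± 0.20 in CD4SP (7.53-fold, adjusted p = 1.32e-06) and 2.46 ± 0.20 in CD8SP (5.50-fold, adjusted p = 4.05e-06). Probe set 1425444_a_at rose by 3.11 ± 0.31 (8.63-fold, adjusted p = 2.56e-05) and 2.24 ± 0.31 (adjusted p = 2.23e-04), with -0.98, 0.17 and 0.29 in DN. The remaining probe set, 1422019_at, was called in 0 of 6 comparisons, with group means between -0.13 and 0.21. Its differences from DP had 95% intervals of -0.17 to 0.58 in CD4SP and -0.17 to 0.58 in CD8SP. Which part of the transcript each probe set reads was not used here. Without DN replicate 1, 1426397_at was called lower in DP than in DN (-0.43, adjusted p = 0.0225, against -0.16 and adjusted p = 0.582 with it).

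Tgfbr1, the gene of the type I receptor kinase, fell in the single-positive subsets by each of 3 probe sets. Probe set 1420893_a_at read -0.19, -0.03 and 0.06 in DN, 0.13, -0.01 and -0.12 in DP, -0.82, -0.76 and -0.57 in CD4SP and -1.70, -1.32 and -1.46 in CD8SP. DN overlapped DP, CD4SP lay below them, and CD8SP was lowest. The difference from DP was -0.71 ± 0.12 in CD4SP (adjusted p = 0.00133) and -1.49 ± 0.12 in CD8SP (2.82-fold lower, adjusted p = 5.84e-06). Probe set 1420894_at gave -0.63 ± 0.12 (adjusted p = 0.00201) and -1.35 ± 0.12 (adjusted p = 7.92e-06). Probe set 1420895_at changed less, by -0.40 ± 0.09 (adjusted p = 0.00530) and -0.47 ± 0.09 (adjusted p = 0.00148). Between DN and DP the 3 probe sets were not called, with adjusted p from 0.336 to 0.957.

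The 250 bases before the annotated starts of the receptor genes are shown because these genes moved in opposite directions after the DP stage. They come from RefSeq (GRCm38.p6), whose promoter table matched 6 of the 10 genes. For Tgfbr1 the outer of 2 listed starts was used (chr4:47352972-47353221, plus strand), and for Tgfbr2 the 1 listed start (chr9:116175364-116175613, minus strand). Capitals mark the GC box GGGCGG, a motif that SP1 binds, and the Smad box CAGAC, each searched on both strands, and the motifs do not overlap here.
Tgfbr1: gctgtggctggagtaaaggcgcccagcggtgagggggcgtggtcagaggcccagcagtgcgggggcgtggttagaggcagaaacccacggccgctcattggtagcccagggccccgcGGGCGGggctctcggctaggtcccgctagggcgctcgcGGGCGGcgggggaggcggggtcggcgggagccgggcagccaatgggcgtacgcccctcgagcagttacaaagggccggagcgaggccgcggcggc
Tgfbr2: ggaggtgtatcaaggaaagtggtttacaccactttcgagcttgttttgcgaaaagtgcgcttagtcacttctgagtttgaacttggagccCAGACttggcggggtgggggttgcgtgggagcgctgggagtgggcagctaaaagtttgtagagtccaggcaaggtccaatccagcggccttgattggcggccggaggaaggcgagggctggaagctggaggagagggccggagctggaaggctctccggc
The Tgfbr1 window held 2 GC boxes and 0 Smad boxes at a G and C content of 74.8%, and the Tgfbr2 window held 0 GC boxes and 1 Smad box at 58.4%. Among 32851 promoter windows of the same length, 32.7% held a GC box and 42.2% a Smad box. A match describes these letters and is no evidence of binding.

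Smad3, a receptor-activated transducer, was lowest in CD8SP by each of 3 probe sets. Probe set 1450472_s_at read 0.22, 0.21 and 0.36 in DN, 0.10, -0.06 and -0.04 in DP, 0.16, 0.27 and 0.37 in CD4SP and -0.72, -0.59 and -0.79 in CD8SP. The CD8SP arrays lay apart below the other 9 arrays, and DN and CD4SP overlapped. CD8SP differed from DP by -0.70 ± 0.10 (adjusted p = 2.09e-04) and from DN by -0.97 ± 0.10 (adjusted p = 2.47e-05). For 1450471_at CD8SP minus DP was -0.82 ± 0.13 (adjusted p = 5.18e-04), and for 1454960_at it was -0.50 ± 0.11 (adjusted p = 0.00434). CD4SP was not called against DP, with differences of 0.15 to 0.27. Between DN and DP the probe sets gave -0.26 to -0.19 and no call. That of 1450471_at was called without DN replicate 1 (-0.33, adjusted p = 0.0406), and that of 1450472_s_at without DP replicate 1 (-0.32, adjusted p = 0.0495).

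Smad2, the other receptor-activated transducer, had the narrowest ranges among the Smad genes. Probe set 1420634_a_at was called in 0 of 6 comparisons, with group means of 0.00 in DN, -0.25 in CD4SP and -0.28 in CD8SP. Probe set 1442062_at read 0.05, 0.21 and 0.15 in DN, 0.09, -0.21 and 0.12 in DP, 0.12, -0.09 and 0.14 in CD4SP and -0.29, -0.35 and -0.18 in CD8SP. It was called in 1 comparison, CD8SP against DN (-0.41 ± 0.11, adjusted p = 0.0147), a call lost without DN replicate 2 (-0.37, adjusted p = 0.0534). CD8SP minus DP was -0.28 for each probe set, with 95% intervals of -0.52 to -0.04 and -0.52 to -0.03. The first was called without CD8SP replicate 3 (-0.35, adjusted p = 0.0443) and the second without DP replicate 2 (-0.38, adjusted p = 0.0274). In the limma fit of gene means, the mean of the Smad2 probe sets was called lower in CD8SP than in DP (-0.28, adjusted p = 0.0296).

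Smad4, the shared partner of the activated Smads, was lowest in DN by each of 3 probe sets. Probe set 1422486_a_at read -0.70, -0.56 and -0.59 in DN, -0.05, -0.04 and 0.10 in DP, 0.25, 0.27 and 0.38 in CD4SP and -0.17, 0.02 and 0.14 in CD8SP. The DN arrays lay below the other 9, and CD8SP overlapped DP. From DN to DP it rose by 0.62 ± 0.10 (1.54-fold, adjusted p = 6.79e-04), 1422485_at rose by 0.65 ± 0.09 (adjusted p = 2.41e-04) and 1422487_at by 0.41 ± 0.12 (adjusted p = 0.0202). The last did not pass when DN replicate 2, DP replicate 2 or DP replicate 3 was left out (adjusted p of 0.0552, 0.0543 and 0.0842). After DP the probe sets of Smad4 disagreed. CD8SP minus DP was -0.37 ± 0.09 for 1422485_at (adjusted p = 0.00871) and 0.00 for each of the others. CD4SP exceeded DP by 0.30 ± 0.10 for 1422486_a_at (adjusted p = 0.0465), a call lost in 11 of 20 alternatives, the omission of each of 10 single arrays among them (the highest adjusted p was 0.147, without CD4SP replicate 3).

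The corepressor genes Ski and Skil rose in the single-positive subsets, and they were higher in CD4SP than in CD8SP. Ski probe set 1426373_at read -0.35, -0.05 and -0.43 in DN, -0.07, -0.05 and 0.11 in DP, 2.02, 1.81 and 1.86 in CD4SP and 1.35, 1.36 and 1.29 in CD8SP. The CD4SP arrays lay above the CD8SP arrays and both above DP, while DP and DN overlapped. The rise over DP was 1.89 ± 0.11 in CD4SP (adjusted p = 5.66e-07) and 1.33 ± 0.11 in CD8SP (adjusted p = 6.32e-06), and 1429192_at rose by 1.60 ± 0.10 (adjusted p = 7.19e-07) and 1.08 ± 0.10 (adjusted p = 1.11e-05). From DN to DP 1429192_at rose by 0.51 ± 0.10 (adjusted p = 0.00208). Probe set 1426373_at gave 0.28 ± 0.11 there (adjusted p = 0.0829), which was called without DN replicate 2 (0.39, adjusted p = 0.0211).

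Skil probe set 1452214_at read -1.17, -0.56 and -0.44 in DN, -0.03, 0.00 and 0.03 in DP, 2.27, 2.36 and 2.45 in CD4SP and 1.75, 1.52 and 1.69 in CD8SP. No subset overlapped another, in the order CD4SP, CD8SP, DP and DN. It rose from DN to DP by 0.72 ± 0.16 (adjusted p = 0.00567), from DP to CD4SP by 2.36 ± 0.16 (5.13-fold, adjusted p = 1.80e-06) and from DP to CD8SP by 1.66 ± 0.16 (adjusted p = 2.09e-05). DN replicate 1 was its lowest array, and without it DP minus DN was 0.50 (adjusted p = 0.00499). Skil probe set 1422054_a_at rose over DP by 2.05 ± 0.16 in CD4SP (adjusted p = 4.23e-06) and 1.07 ± 0.16 in CD8SP (adjusted p = 3.84e-04), and was not called between DN and DP (0.36 ± 0.16, adjusted p = 0.109).

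Tgif1, the homeodomain corepressor gene, was highest in DN and lowest in CD4SP. Its 1 probe set, 1422286_a_at, read 0.49, 1.07 and 1.11 in DN, 0.06, -0.04 and -0.02 in DP, -0.94, -1.04 and -0.84 in CD4SP and -0.42, -0.23 and -0.01 in CD8SP. DN lay above the other subsets and CD4SP below them, while CD8SP overlapped DP. DP minus DN was -0.89 ± 0.16 (adjusted p = 0.00159), and without DN replicate 1, its lowest DN array, -1.09 (adjusted p = 1.37e-04). CD4SP differed from DP by -0.94 ± 0.16 (adjusted p = 0.00135) and from DN by -1.83 ± 0.16 (3.56-fold lower, adjusted p = 8.45e-06). CD8SP minus DP was -0.22, with a 95% interval of -0.58 to 0.14.

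**Figure D2:**
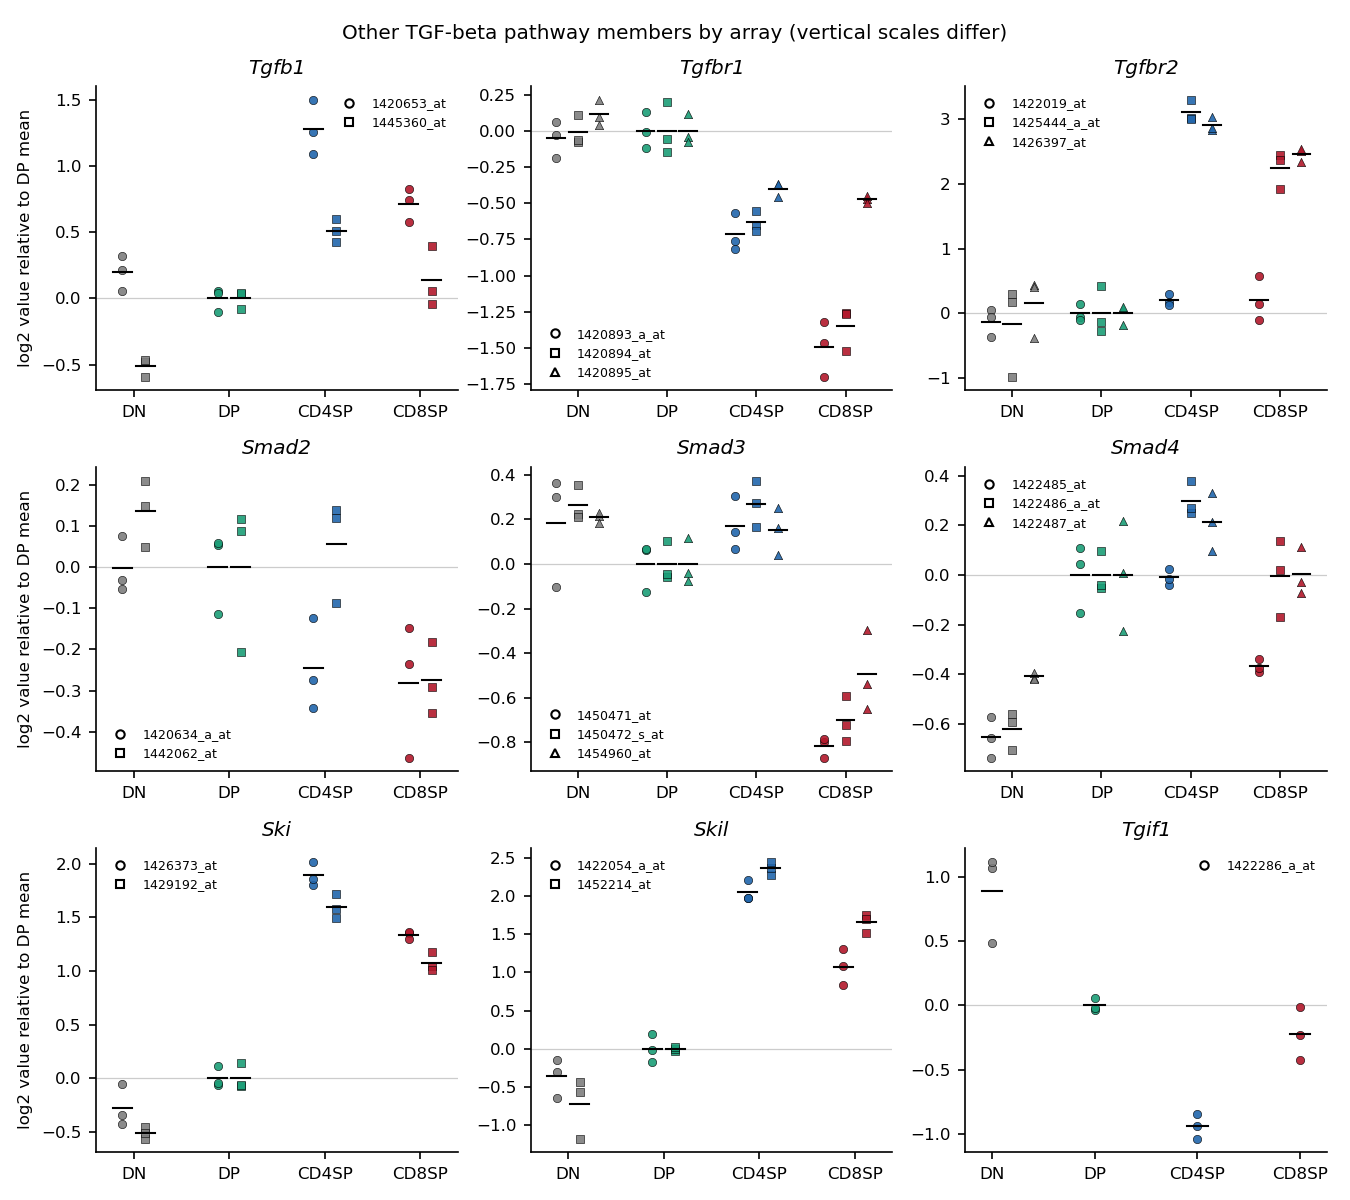
Log2 values relative to the DP mean (vertical axes, which differ in scale) of the other 21 probe sets on each of 12 arrays, in 1 panel per gene, by thymocyte subset (horizontal axes). Markers are single arrays, their shapes the probe sets in each key, and bars are means of 3 arrays; Tgfb1, Ski and Skil are highest in CD4SP, Tgfbr1 and Smad3 lowest in CD8SP, Smad4 lowest in DN and Tgif1 highest in DN.

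Counted over the members, 6 of 23 probe sets were higher in DP than in DN (Tgfb1, Smad4, Ski and Skil) and 3 lower (Smad7 and Tgif1). Of all probe sets tested, 35.1% were called in this comparison, 19.7% higher and 15.4% lower. The arrays of these groups did not overlap for 12 of the 23 probe sets, against 49.2% of all, and the median absolute difference was 0.26 against 0.31. The myeloid, B, NK and γδ T cell markers that were higher in DN move with this comparison. In CD4SP against DP 11 of the 23 were higher and 4 lower, where 28.3% of all were called, 13.6% higher and 14.7% lower. There 18 of the 23 did not overlap, against 45.8% of all, and the median absolute difference was 0.63 against 0.26. In CD8SP against DP 9 of the 23 were higher and 7 lower, where 36.0% of all were called, 15.1% higher and 20.9% lower. There 17 of the 23 did not overlap, against 46.9% of all, and the median absolute difference was 0.71 against 0.32.

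The comparisons with DP share its 3 arrays, so the 23 probe sets are set side by side without a test of their likeness. In each single-positive subset 9 probe sets were called higher, those of Smad7, Ski and Skil, 2 of Tgfbr2 and 1 of Tgfb1, and 3 were called lower, those of Tgfbr1. Another 4 were called lower in CD8SP but not in CD4SP (Smad3 and 1 of Smad4), 1 lower in CD4SP but not in CD8SP (Tgif1), 2 higher in CD4SP but not in CD8SP (1 each of Tgfb1 and Smad4) and 4 in neither. The share of all probe sets with each of these joint patterns was not computed. These joint counts therefore have no reference and are not read as a trait of the members. Against DN, 13 of the 23 were higher and 4 lower in CD4SP, where 41.2% of all were called (23.3% higher, 18.0% lower), and 19 did not overlap against 54.1% of all. In CD8SP 13 were higher and 8 lower than in DN, where 38.3% of all were called (18.4% higher, 19.9% lower), and 22 did not overlap against 47.7% of all. CD4SP minus DN was largest for Tgfbr2 1425444_a_at (3.28 ± 0.31) and Skil 1452214_at (3.08 ± 0.16).

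**Figure D3:**
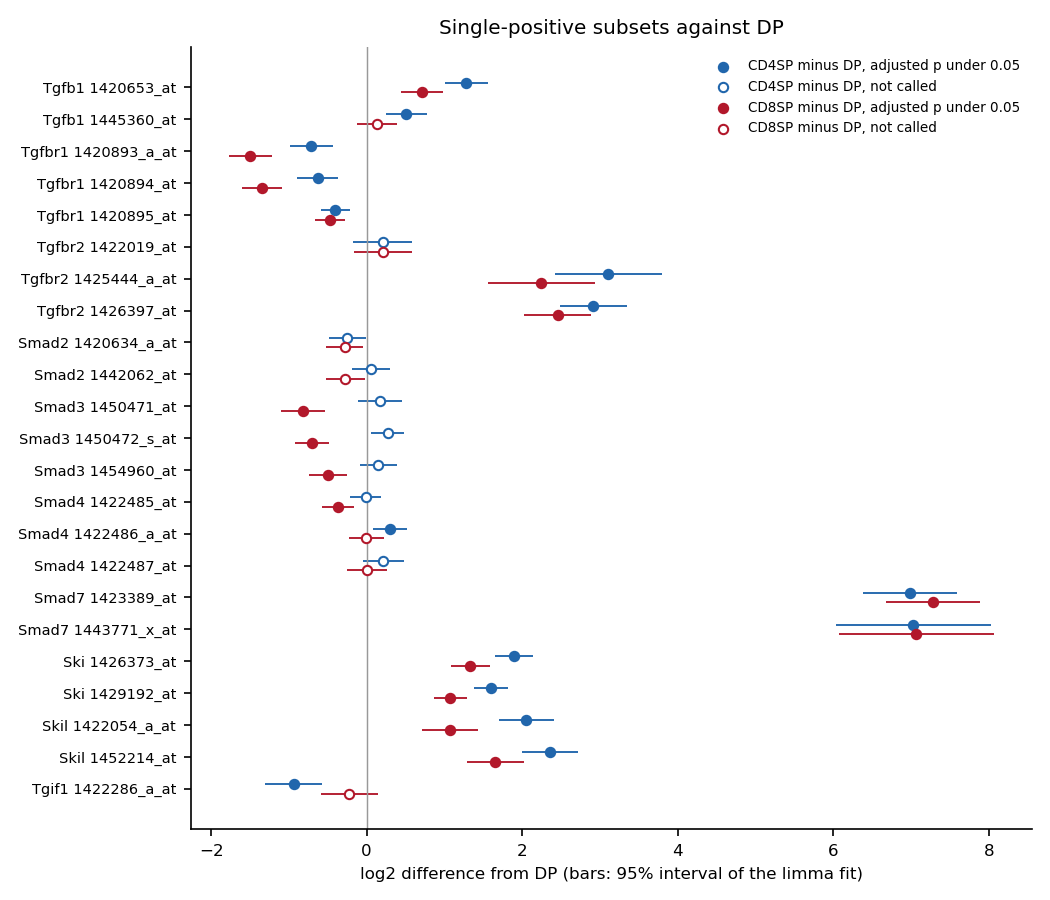
Log2 differences of CD4SP (blue) and CD8SP (red) from DP (horizontal axis) for the 23 probe sets (vertical axis), with 95% intervals of the limma fit as bars. Filled points had an adjusted p under 0.05 and open points did not; the Smad7 differences lie between 6.98 and 7.28, those of Ski and Skil between 1.07 and 2.36, and those of Tgfbr1 below 0.

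The single-positive subsets were also compared directly, as sorted gates. CD4SP was higher than CD8SP for 11 of 23 probe sets and lower for 1, where 11.4% of all were called, 7.58% higher and 3.78% lower. The groups did not overlap for 18 of the 23, against 29.2% of all. Smad3 was higher in CD4SP by 0.99 ± 0.13 for 1450471_at (adjusted p = 0.00107), 0.97 ± 0.10 for 1450472_s_at (adjusted p = 2.11e-04) and 0.65 ± 0.11 for 1454960_at (adjusted p = 0.00405). Tgfbr1, which fell less in CD4SP, was higher there by 0.78 ± 0.12 for 1420893_a_at (adjusted p = 0.00317) and 0.72 ± 0.12 for 1420894_at (adjusted p = 0.00357), while 1420895_at gave 0.07, with a 95% interval of -0.12 to 0.27. Skil differed by 0.98 ± 0.16 for 1422054_a_at (adjusted p = 0.00370) and 0.70 ± 0.16 for 1452214_at (adjusted p = 0.0207), and Ski by 0.56 ± 0.11 for 1426373_at (adjusted p = 0.0103) and 0.52 ± 0.10 for 1429192_at (adjusted p = 0.00770). Tgfb1 differed by 0.57 ± 0.12 for 1420653_at (adjusted p = 0.0149) and 0.37 ± 0.12 for 1445360_at (adjusted p = 0.0679), and Smad4 by 0.36 ± 0.09 for 1422485_at (adjusted p = 0.0294). Tgif1 was the member lower in CD4SP, at -0.72 ± 0.16 (adjusted p = 0.0185).

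Several of these calls were near the threshold. Without CD4SP replicate 1, 4 genes were called in place of 7 (with no array left out, 16.3% of all genes had a called probe set), and Tgfb1 1420653_at (adjusted p = 0.0514), Smad4 1422485_at (0.0647) and Tgif1 (0.0528) lost theirs. Calls over all 45037 probe sets tested fell as well without that array, from 5120 to 3531, so a loss of calls was not particular to the members. Tgif1 also lost its call without CD4SP replicate 2 or CD8SP replicates 2 or 3 (adjusted p of 0.0681, 0.0519 and 0.0671). Skil 1452214_at lost its call without CD4SP replicates 2 or 3 or CD8SP replicates 2 or 3 (adjusted p from 0.0503 to 0.0754), and Smad4 1422485_at without any CD4SP array or CD8SP replicates 2 or 3 (up to 0.0980). Tgfb1 1445360_at was called without CD8SP replicate 1 (0.51, adjusted p = 0.00866). Tgfbr2, not called, gave 0.87 (95% interval 0.18 to 1.55) for 1425444_a_at and 0.45 (0.02 to 0.88) for 1426397_at, and without DN replicate 1 each was called (adjusted p of 0.0211 and 0.0254). The NK marker Klrd1 lay at 5.19 to 6.28 in CD8SP against 1.37 to 1.55 in CD4SP, while the NK marker Tyrobp lay at -0.16 to 0.00 in CD8SP. The part of such cells in this comparison was not tested.

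**Figure D4:**
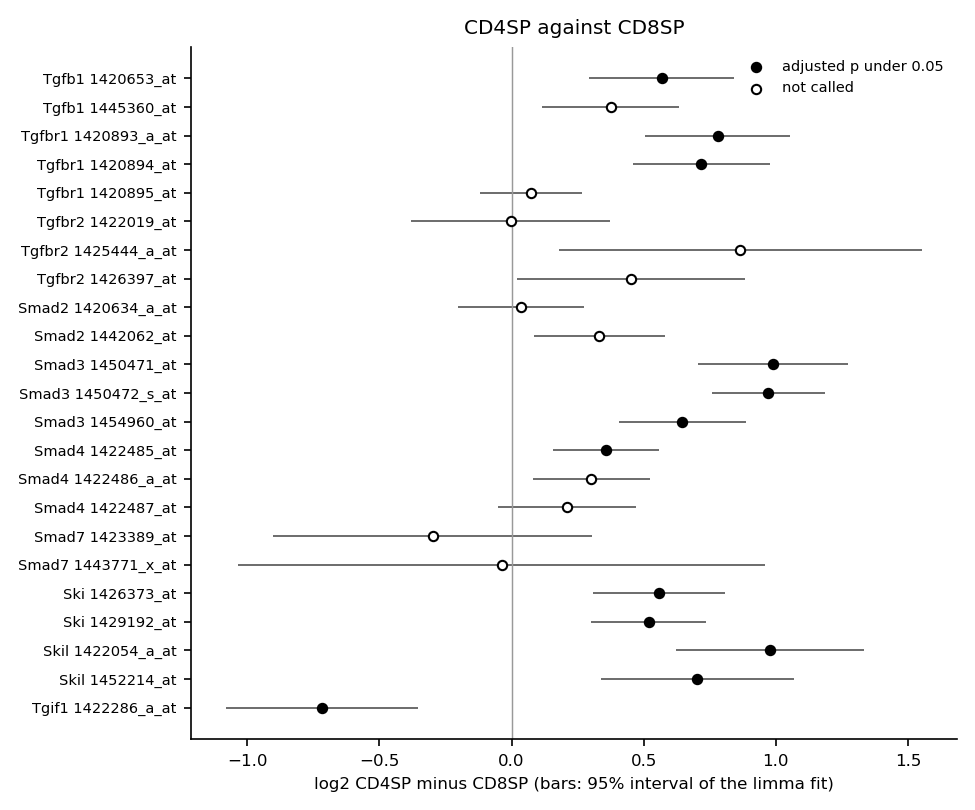
Log2 differences of CD4SP minus CD8SP (horizontal axis) for the 23 probe sets (vertical axis), with 95% intervals of the limma fit as bars. Filled points had an adjusted p under 0.05 and open points did not; the Smad3 probe sets lie between 0.65 and 0.99, Tgif1 at -0.72, and the Smad7 intervals include 0.

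Further genes of the pathway were counted from 9 lists, by gene, with all probe sets of a gene. A gene counts as called when any of its probe sets was, so genes with more probe sets have more chances. By that rule 44.1% of all genes were called in DP against DN, 37.9% between CD4SP and DP, and 46.6% between CD8SP and DP. Over all probe sets the median differences in these 3 comparisons were 0.09, 0.02 and -0.04, and each list is given in this order by its probe sets too. The list of coreceptors and decoys held 4 genes, among them the receptor gene Acvrl1, which is neither. Of the 4, 3 rose and 1 fell from DP to CD4SP, and 2 rose and 1 fell in CD8SP. Of the 7 probe sets of this list, 3, 6 and 5 were called in the 3 comparisons (35.1%, 28.3% and 36.0% of all), with median differences of 0.21, 0.80 and 1.07. Tgfbr3, the betaglycan gene, rose by 2.13 ± 0.13 in CD4SP (adjusted p = 7.82e-07), with 1.99, 2.09 and 2.31 there and 0.31, 0.29 and 0.42 in CD8SP. Eng, the endoglin gene, rose by 2.33 ± 0.23 in CD8SP (adjusted p = 1.74e-05) and by 0.76 ± 0.23 in CD4SP (adjusted p = 0.0275). The second call was lost without any CD4SP array or DP replicate 2 (adjusted p from 0.0533 to 0.106). CD4SP minus CD8SP was 1.79 ± 0.13 for Tgfbr3 (adjusted p = 3.34e-05) and -1.57 ± 0.23 for Eng (adjusted p = 0.00188), of opposite sign. The receptor gene Acvrl1 rose in each (1.84 ± 0.15 in CD4SP and 1.07 ± 0.15 in CD8SP), and the decoy receptor gene Bambi fell (-0.96 ± 0.27 and -1.07 ± 0.27). Bambi lost its call in CD4SP without DP replicates 2 or 3 (adjusted p of 0.0652 and 0.0568), so that 2 genes of the list were called in place of 4 without DP replicate 2.

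Of 13 genes for turnover and restraint of receptors and Smads, 7 rose and 3 fell from DN to DP, and 4 rose and 5 fell from DP to CD4SP. In CD8SP 3 rose, 6 fell and 1 (Nedd4l) had probe sets called in both directions. Among their 46 probe sets, 21, 13 and 27 were called in the 3 comparisons (35.1%, 28.3% and 36.0% of all), with median differences of 0.19, -0.03 and -0.27. Pmepa1, a feedback inhibitor that sequesters receptor-activated Smads, rose by 1.26 ± 0.14 in CD4SP (adjusted p = 6.42e-05) and by 2.84 ± 0.14 in CD8SP (adjusted p = 1.72e-07). CD4SP minus CD8SP was -1.58 ± 0.14 for Pmepa1 (adjusted p = 1.30e-04). Smurf2, the gene of a ubiquitin ligase that SMAD7 brings to the receptor, rose by 1.62 ± 0.15 in CD4SP and 1.90 ± 0.15 in CD8SP. The deubiquitinase gene Usp11 was lower in CD4SP than in DP (-1.91 ± 0.10, adjusted p = 1.73e-07) and than in CD8SP (-1.80 ± 0.10, adjusted p = 6.59e-06). From DN to DP the ubiquitin ligase gene Rnf111 rose by 0.66 ± 0.09, and Strap, which stabilises SMAD7 on the receptor, fell (-0.98 ± 0.10).

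Of 8 measured nuclear cofactor genes, 2 rose and 3 fell in CD4SP and 2 rose and 5 fell in CD8SP. Without DP replicate 1, DP replicate 2 or CD4SP replicate 2, 3 were called in CD4SP in place of 5. Of 21 cofactor probe sets, 14, 8 and 14 were called in the 3 comparisons (35.1%, 28.3% and 36.0% of all), with median differences of 0.22, -0.17 and -0.45. Zeb1 fell in each (-1.28 ± 0.12 and -1.24 ± 0.12), and Tgif2, the paralogue of Tgif1, rose in each (1.06 ± 0.10 and 0.46 ± 0.10). Zeb2 was lower in DP than in DN (-5.27 ± 0.31, adjusted p = 7.63e-07). Of 7 genes of the branch that works without Smads, 4 rose and 0 fell from DN to DP, 0 rose and 4 fell in CD4SP, and 0 rose and 5 fell in CD8SP. By probe set, of 21 in this branch, 11, 7 and 14 were called in the 3 comparisons (35.1%, 28.3% and 36.0% of all), with median differences of 0.36, -0.21 and -0.55. Traf6, the gene of a ubiquitin ligase in this branch, fell in each by its probe set with the lowest adjusted p (-0.74 ± 0.10 and -1.37 ± 0.10). Another Traf6 probe set overlapped DP, with 0.04, 0.01 and -0.18 in CD4SP and -0.07, -0.37 and -0.37 in CD8SP. Its DP arrays read 0.14, -0.14 and 0.00. Of 7 other Smads and adaptors, 1 rose and 1 fell in CD4SP and 0 rose and 1 fell in CD8SP, where Smad5, a transducer of the BMP branch, differed from DP by -1.23 ± 0.13 (adjusted p = 3.57e-05). For these Smads and adaptors, of 13 probe sets, 5, 3 and 3 were called in the 3 comparisons (35.1%, 28.3% and 36.0% of all), with median differences of -0.03, 0.07 and -0.06.

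Of 11 measured genes of further ligands and the latent complex, 2 rose from DN to DP and 1 rose in CD4SP. In CD8SP 1 rose and 1 (Itgav) had probe sets called in both directions. The first count was 4 without DN replicate 3. The second was 0 without CD4SP replicate 1 and 2 without CD4SP replicate 2 or DN replicate 1, and for the third 1 gene was called in place of 2 without DP replicate 1, DP replicate 3 or CD4SP replicate 3. Of 25 ligand and latent complex probe sets, 2, 1 and 4 were called in the 3 comparisons (35.1%, 28.3% and 36.0% of all), with median differences of 0.05, 0.01 and -0.10. The integrin gene Itgav, which helps to free the latent ligand, rose from DN to DP by 0.67 ± 0.09 (adjusted p = 1.58e-04) by its probe set with the lowest adjusted p. Another Itgav probe set overlapped there, with -0.01, -0.03 and -0.03 in DN and -0.08, -0.02 and 0.10 in DP. Of 16 genes of the BMP and activin branch, 10 rose and 2 fell in CD4SP and 5 rose and 1 fell in CD8SP. Among 41 BMP and activin probe sets, 5, 14 and 8 were called in the 3 comparisons (35.1%, 28.3% and 36.0% of all), with median differences of -0.04, 0.29 and 0.16. The ligand gene Bmp7 fell in each (-1.83 ± 0.20 and -2.10 ± 0.20), the type I receptor gene Acvr1b rose in CD4SP (0.64 ± 0.13), and the antagonist gene Nog rose in CD8SP (1.49 ± 0.25). From DN to DP 4 of them fell, a count of 1 without DN replicate 2 or 3 and of 2 without DP replicate 1 or 3.

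Of 8 measured genes that TGFβ is known to induce in T cells or other cells, 0 rose and 4 fell from DN to DP, 4 rose and 0 fell from DP to CD4SP, and 3 rose and 0 fell in CD8SP. Of the 14 probe sets of these induced genes, 6, 5 and 4 were called in the 3 comparisons (35.1%, 28.3% and 36.0% of all), with median differences of -0.36, 0.35 and 0.08. Itgae, which encodes the CD103 integrin chain, read 1.72, 3.31 and 3.50 in DN, -0.29, 0.40 and -0.11 in DP, 1.83, 1.99 and 1.92 in CD4SP and 7.77, 8.06 and 7.92 in CD8SP. The CD8SP arrays stood far above all others. It rose over DP by 7.92 ± 0.38 in CD8SP (242-fold, adjusted p = 1.23e-07) and by 1.91 ± 0.38 in CD4SP (adjusted p = 0.00313). Ccr8, a chemokine receptor gene, rose by 6.13 ± 0.35 in CD4SP and 3.80 ± 0.35 in CD8SP, and the direct difference was 2.33 ± 0.35 (adjusted p = 0.00225). Foxp3, the regulatory T cell factor, rose in CD4SP by 0.49 ± 0.16 (adjusted p = 0.0432). That call was lost without any of the DN or CD4SP arrays, without DP replicates 2 or 3 and without CD8SP replicates 1 or 3 (adjusted p up to 0.161). It was also lost with the replicate number as a block (adjusted p = 0.0517), with each array's median subtracted (0.0518) and with the 6 arrays compared alone (0.0889).

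Of 10 genes that TGFβ is known to repress in T cells or other cells, 1 rose and 5 fell from DN to DP, 2 rose and 1 fell in CD4SP, and 7 rose and 1 fell in CD8SP. Whether TGFβ represses each of them in thymocytes was not tested. Among the 14 probe sets of these repressed genes, 7, 4 and 11 were called in the 3 comparisons (35.1%, 28.3% and 36.0% of all), with median differences of -0.67, 0.28 and 1.34. Myc rose over DP by 2.19 ± 0.16 in CD4SP and 2.63 ± 0.16 in CD8SP, and Id2, the gene of an inhibitor of E proteins, by 4.56 ± 0.38 and 3.78 ± 0.38. The effector factor gene Eomes rose by 3.75 ± 0.44 (adjusted p = 7.19e-05) and the perforin gene Prf1 by 2.30 ± 0.17 (adjusted p = 2.24e-06) in CD8SP. Id1 was the gene of this list that fell, with -1.09 ± 0.20 in CD4SP (adjusted p = 0.00167).

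**Figure D5:**
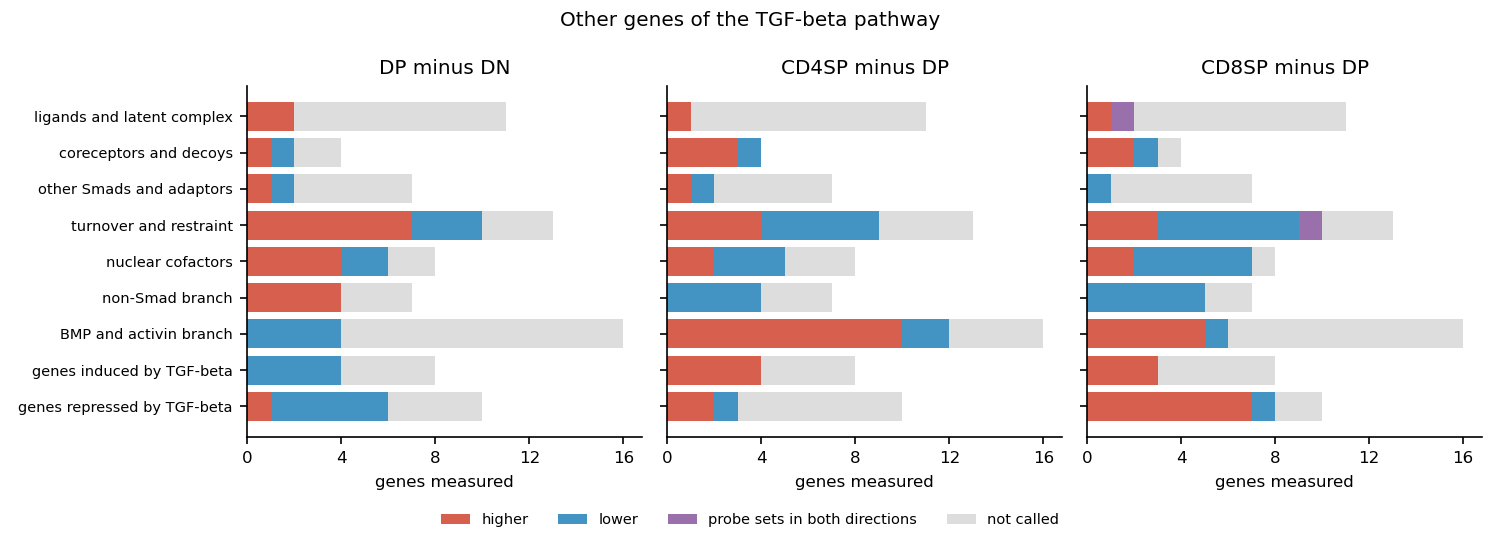
Number of genes measured (horizontal axes) in each of 9 pathway lists (vertical axis) that were called higher, lower, in both directions or not at all, in 3 comparisons. In the branch without Smads 4 of 7 genes were higher in DP than in DN, and 4 and 5 were lower in CD4SP and CD8SP than in DP. Of 10 genes known to be repressed, 7 were higher and 1 lower in CD8SP than in DP. Of 8 genes known to be induced, 3 were higher and 0 lower there. Among all genes 44.1% were called in either direction between DN and DP, 37.9% between DP and CD4SP, and 46.6% between DP and CD8SP.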

How the data were processed

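Expression was measured on 12 Affymetrix arrays, grouped into 4 subsets of 3 by sample title. The table that the authors deposited holds log values, taken here as log2, for each probe set and array. Their base, the probe-level steps and the genome build are not given in the sources used here, and the role of MAS5, which the submitters' processing notes list, is not stated. The DP mean had been subtracted for each probe set (largest absolute DP mean 1.27e-06), which removes levels and signal over background, so no dim probe sets were filtered. Array medians lay between -0.10 and 0.05, and no further normalization was done. The 64 control probe sets were left out.

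Each of 45037 probe sets was fitted with limma 3.58.1 in R 4.3.3 (4 group means, eBayes without a trend). Two-sided p-values were adjusted by Benjamini-Hochberg within each of 6 comparisons. The fit was also run on simulated data with noise independent between arrays, which could not test effects that arrays share. The members and lists were chosen with earlier results of these data known. Every probe set of a member is given. From each pathway list and comparison, at most 4 genes with the lowest adjusted p among called probe sets could be named. Values of a gene named from a list are those of that probe set unless stated, and its other probe sets may differ. The genes most like Smad7 were the 6 with the highest Pearson r, passing over clone identifiers. A marker's value is the mean over its probe sets, and markers were picked for naming after their values were seen. Residual r between arrays of the same replicate number was 0.09 to 0.15, -0.02 to 0.09 and 0.03 to 0.12 for numbers 1, 2 and 3. Between arrays of different numbers it was -0.15 to 0.08, below every pair numbered 1, so the arrays numbered 1 deviated together. The number is not known to pair the samples and was not a block in the reported fit. Fits with the number as a block, or with arrays numbered 1 as a factor, are among the alternatives. Of the alternatives, 12 leave out 1 array each and 9 change the fit. The array weights of limma, lower for arrays that deviate more from the fit, were lowest for CD8SP replicate 1 (0.30) and DN replicate 1 (0.60). Those of the other arrays were 0.75 to 1.69.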

Additional observations from a re-analysis of the deposited data

How the results depend on the processing

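The number of member genes with a called probe set was 6 in DP against DN, 8 in CD4SP against DP, 8 in CD8SP against DP, 7 in CD4SP against CD8SP, 8 in CD4SP against DN and 10 in CD8SP against DN. Among all genes, 44.1%, 37.9%, 46.6% and 16.3% had a called probe set in the first 4 of these comparisons. For the single-positive subsets against DN no share of all genes was computed, so those member counts have no such reference. By probe set, 73.9% (CD4SP) and 91.3% (CD8SP) of the members' were called against DN, where 41.2% and 38.3% of all were. Leaving out each array in turn gave member gene counts of 6 to 8, 7 to 8, 8 to 9, 4 to 8, 8 and 9 to 10, in the same order of comparisons. Over all probe sets tested, calls in CD4SP against CD8SP also fell without CD4SP replicate 1, from 5120 to 3531. With the replicate number as a block the member gene counts were 6, 8, 8, 8, 8 and 10, although the number is not known to pair the samples. The 9 alternatives that change the fit (the block, the loss of DN and CD8SP replicate 1 together, arrays numbered 1 as a factor, gene means, probe sets with 1 symbol, a variance trend, array weights, the 6 arrays compared and median subtraction) gave 5 to 8, 7 to 9, 8, 6 to 8, 8 to 9 and 10. An equal count can hold other genes. In CD8SP against DP the limma fit of gene means called Smad2 (adjusted p = 0.0296) and not Smad4 (adjusted p = 0.313), the reverse of the reported fit. Of 90 called results of single member probe sets, 81 kept direction and call under all 20 alternatives that use probe sets, and 0 reversed. The block added the calls of Tgfb1 1445360_at (adjusted p = 0.0431), Tgfbr2 1425444_a_at (0.0314) and Smad4 1422486_a_at (0.0420) in CD4SP against CD8SP and changed no other call of a member. Among genes of the lists that could be named it ended the calls of Foxp3 in CD4SP against DP (0.0517) and Tgfb2 in CD8SP against DP (0.0595). Of 179 results for the genes of the lists that could be named, 148 kept their call. Signal over background is unknown, so dim probe sets could not be told from the rest.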
